A study of Mus musculus with 6 samples.

Results

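The 40 genes described here run the upkeep of mitochondria: they fuse and divide the organelle, shape the folds of its inner membrane (cristae), cut and refold its proteins, and mark damaged mitochondria for removal by autophagy (mitophagy). They were listed by function, with no measured value in the rule, but with earlier results of these data known. All 40 were among the 15176 genes of the deposited table. Their RNA was sequenced in iWAT, the inguinal fat depot under the skin, from mice fed a high-fat diet. The 6 libraries came from 4 Steap4f/f samples (replicates 1, 2, 5 and 6), which carry the floxed Steap4 gene, and 2 Steap4AKO samples (replicates 2 and 3), labelled as lacking Steap4 in adipocytes, and the high-fat diet was common to both groups. The former are called controls. The sources used here do not give the Cre driver, sex, age or strain. Nothing in the labels ties a library to a mouse of its own, so that p-values measure only the spread between these samples, which may be technical. The study asked how loss of Steap4, a metalloreductase of iron and copper, affects diet-induced mitochondrial dysfunction in fat.

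Mitochondria form a network that is remodelled by large GTPases. Mitofusins join outer membranes, OPA1 joins inner membranes, and dynamin-related protein 1, drawn to the surface by receptor proteins, pinches the organelle apart. Cristae are held in shape by the MICOS complex, proteases and chaperonins maintain the protein content, and PINK1 or membrane receptors tie damaged mitochondria to the autophagy protein LC3. In adipose tissue these systems are known to change with browning and with obesity.

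Values are gene counts normalized by the authors. Differences are on the log2(value + 1) scale, Steap4AKO minus Steap4f/f, tested with limma over 15006 genes and adjusted by Benjamini-Hochberg with a threshold of 0.05. Folds are ratios of group means. With 4 libraries against 2, an exact permutation test of a single gene cannot give a p below 0.0667. No overlap means that both Steap4AKO libraries lay on the same side of every Steap4f/f library.

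The libraries differed beyond genotype. Steap4 itself had 17018, 9417, 8310 and 8851 in the controls, against 8313 and 8014 in the Steap4AKO libraries (log2 difference -0.35, SE 0.29, limma adjusted p = 0.544), so that whole-tissue transcript did not separate the labels. The column sums divided by the value of 1 read gave a depth of about 15900000 to 19400000 reads in 5 libraries and 23200000 in Steap4AKO replicate 2. The value of 1 read was estimated in every library and is uncertain. If 1 read in Steap4AKO replicate 2 were worth 1.43 and not 0.714, its depth would be 11600000. Then 34.3% and not 59.2% of its low values would lie within 0.1 of a whole read. With the value doubled in every library, this share was 30.2 to 35.8%, and the depth of the other 5 libraries was 8000000 to 9700000. All 10 adipocyte markers were present in every library, with summed values of 911199 to 958062 in Steap4f/f, 695352 in Steap4AKO replicate 2 and 988863 in Steap4AKO replicate 3. They averaged 95.3 to 103% of their Steap4f/f mean in Steap4f/f, and 98.6 and 125% in Steap4AKO replicates 2 and 3. Their median log2 difference from that mean was -0.57 and 0.21 in these 2 libraries. The markers did not move together: Lep had 8106 to 22141 in Steap4f/f, against 55202 and 43434 in Steap4AKO. All 16 skeletal muscle markers were in the table and averaged 26.0 to 183% of their Steap4f/f mean in Steap4f/f, but 0.541 and 4.61% in Steap4AKO replicates 2 and 3, with summed values of 159201 to 860008 against 2563 and 20645. Of these markers Myh7 was listed at 0 in Steap4f/f replicate 1 and in Steap4AKO replicate 3. Steap4AKO replicate 2 stood apart further. Its 10 macrophage markers summed to 31325 (9705 to 11190 in Steap4f/f and 9065 in Steap4AKO replicate 3). Its 8 mesothelial and visceral markers summed to 2573 (95.5 to 568 in Steap4f/f, where 3 replicates had 2 to 4 of them listed at 0, and 58.1 in Steap4AKO replicate 3, with 4 listed at 0). The 4 epididymis markers of 12 that were in the table summed to 8683 there and to 0 to 3.34 elsewhere, with 3 or 4 listed at 0 in each of the other libraries. Its 7 subcutaneous depot genes summed to 1323 (4212 to 4991 in Steap4f/f and 3678 in Steap4AKO replicate 3). In whole tissue, fewer cells of a type and less RNA per cell cannot be told apart, and the part of these differences in the results was not tested except where values are given.

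Of the 40 genes, the mean log2 value was lower in the Steap4AKO group for 36, as for 47.8% of all genes tested. In 21 of them both Steap4AKO libraries lay below every Steap4f/f library, and in none of the 40 did both lie above. With equal column sums, 13 were lower and 3 higher in this way, beside 7.67% and 25.6% of all genes. Across all genes tested, 14.4% were lower in this way and 14.1% higher. Chchd10 was the 1 gene of the 40 that passed the threshold, where 0.473% of all genes passed (71 genes) and 0.433% passed as lower (65 genes). Of the 16 skeletal muscle markers 8 passed, all lower. So did 8 of 74 nuclear subunits of the respiratory chain and ATP synthase, all lower. At an unadjusted p under 0.05 limma gave 15 of the 40, all lower, beside 18.1% of all genes, with 9.66% lower and 8.45% higher. The median log2 difference of the 40 genes was -0.31, and it was 0.02 over all genes tested.

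The groups of genes lay at different levels. The median log2 difference was -0.54 for the 8 cristae and MICOS genes, -0.54 for the 3 chaperones, -0.44 for the 2 prohibitins and -0.39 for the 6 proteases, while it was -0.12 for the 5 fission genes, -0.12 for the 4 genes of inner membrane fusion and OPA1 processing and -0.12 for the 8 mitophagy genes. It was -1.24 for Chchd10 and its paralog Chchd2 and 0.38 for the 2 mitofusins. The 74 nuclear subunits of the respiratory chain and ATP synthase, measured beside them, had a median of -0.79. They are called respiratory chain subunits here. Of these, 73 of 74 were lower without overlap, beside 14.4% of all genes. In Steap4AKO replicate 2 alone the 40 genes had a median of -0.47 and in replicate 3 of -0.16, while the respiratory chain subunits had -0.98 and -0.63. No test was made of the differences between these groups.

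**Figure D1:**
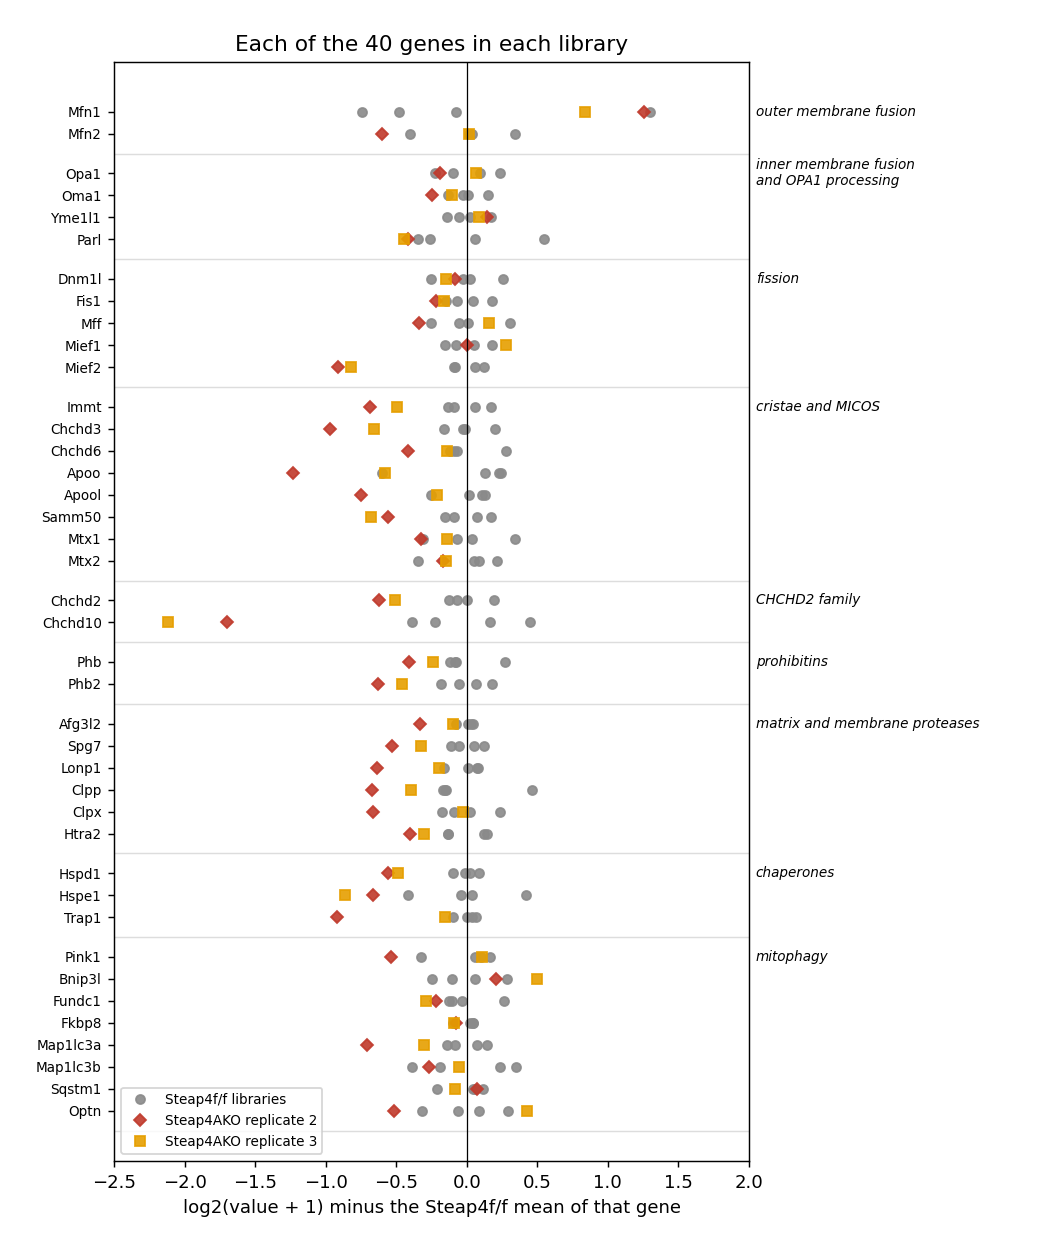
Each row is a gene, and each point is a library's log2(value + 1) minus that gene's Steap4f/f mean. Grey circles are the 4 Steap4f/f libraries, red diamonds Steap4AKO replicate 2 and orange squares Steap4AKO replicate 3; Chchd10 lies farthest to the left, at -1.70 and -2.12, and Mfn1 has the widest Steap4f/f spread.

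**Figure D2:**
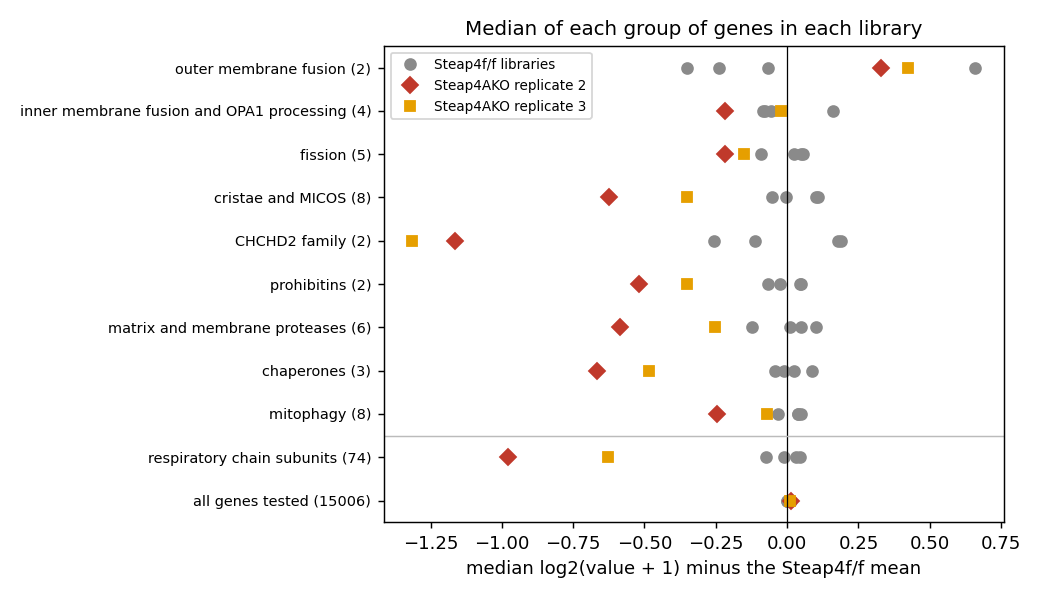
Median over each group of genes, with the number of genes in parentheses, of the log2(value + 1) minus the Steap4f/f mean in each library. Cristae genes stood at -0.62 and -0.35 in Steap4AKO replicates 2 and 3 and mitophagy genes at -0.24 and -0.07, beside -0.98 and -0.63 for respiratory chain subunits and 0.02 and 0.01 for all genes. The respiratory chain subunits include those of ATP synthase.

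Chchd10 had the largest difference of the 40. It encodes a small protein of the intermembrane space with a coiled-coil-helix domain, is most abundant in heart and skeletal muscle, and is mutated in inherited motor neuron disease and myopathy. The gene (ENSMUSG00000049422) lies on chromosome 10 from 75933130 to 75937747 of GRCm38, on the plus strand. Its normalized value was 4140, 2825.5, 3155 and 5044 in Steap4f/f replicates 1, 2, 5 and 6 and 1135 and 850 in Steap4AKO replicates 2 and 3. Every Steap4f/f library was thus far above both Steap4AKO libraries, and the lower of these was replicate 3. The means were 3791 ± 1005 (SD, n = 4) and 992 ± 202 (SD, n = 2), a 3.82-fold lower level in Steap4AKO (log2 difference -1.91, SE 0.25, limma adjusted p = 0.0466). Per kilobase of its longest transcript it ranked 5 of the 40 in Steap4f/f (2548) and 19 in Steap4AKO (667).

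The Chchd10 call was close to the threshold. Its adjusted p lay between 0.0295 and 0.570 over the alternatives, and it was 0.199 without Steap4AKO replicate 2, 0.0569 without Steap4AKO replicate 3 and 0.177, 0.154 and 0.123 without Steap4f/f replicates 2, 5 and 6, while the log2 difference stayed between -2.13 and -1.70. The muscle markers stood at 26.0, 110, 80.5 and 183% of their Steap4f/f mean in control replicates 1, 2, 5 and 6, where Chchd10 was 4140, 2825.5, 3155 and 5044. The control with the most muscle marker RNA thus had the highest Chchd10, and the control with the least had the second highest. The part of muscle RNA in the Chchd10 result was not tested further. With the muscle index, the mean log2 value of the 16 muscle markers, as a covariate its log2 difference was -2.13 (SE 0.58, limma adjusted p = 0.570). This index was lower in both Steap4AKO libraries than in all 4 controls, with a correlation with genotype of -0.895 across the 6 libraries, so that in every value adjusted for it genotype and muscle content cannot be told apart well. Chchd10 shares 155 exonic bases with Mmp11 on the other strand, which had 147 to 292 in the controls, against 362 and 306 in the Steap4AKO libraries, both above all 4 controls.

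The bases before the starts of Chchd10 and Mief2, the genes with the 2 lowest levels relative to Steap4f/f among those without overlap, and a site before the start of Hspe1 and within Hspd1, its neighbour on the other strand, are shown to give the sequence context of the genes described. They come from RefSeq's promoter table on GRCm38.p6, read 5′ to 3′ on the plus strand, from chr10:75932880-75933129, chr11:60728148-60728397 and chr1:55088053-55088082. Capitals mark matches, on either strand, to the motifs searched.
Chchd10: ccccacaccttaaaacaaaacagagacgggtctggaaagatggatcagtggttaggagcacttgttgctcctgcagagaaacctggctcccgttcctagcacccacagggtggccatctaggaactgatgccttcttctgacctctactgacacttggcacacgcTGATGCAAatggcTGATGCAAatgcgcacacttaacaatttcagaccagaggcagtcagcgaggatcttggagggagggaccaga
Mief2: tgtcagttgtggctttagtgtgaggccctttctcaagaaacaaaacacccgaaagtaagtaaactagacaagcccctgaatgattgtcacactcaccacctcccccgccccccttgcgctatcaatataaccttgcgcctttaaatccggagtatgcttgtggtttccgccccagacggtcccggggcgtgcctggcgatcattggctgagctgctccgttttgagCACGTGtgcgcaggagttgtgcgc
Hspe1: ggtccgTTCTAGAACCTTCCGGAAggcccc

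The capitals in Chchd10 are 2 copies of TGATGCAA, the letters of a C/EBP-ATF element, which begin 13 bases apart, do not overlap and lie between 85 and 65 bases before the RefSeq start. The window of 300 bases (250 before the start and 50 after) held at least 1 such match in 1.03% of 27025 genes and 2 or more in 2 of them, of which Chchd10 was 1. Among the 35 listed genes with a promoter there, only Chchd10 had a match. Genes with 2 or more matches were counted for this motif alone. The motifs were chosen with earlier results known, so that this count is no test. In Mief2 the capitals are CACGTG, an E-box, present in 5 of the 35 genes with a promoter in that table and in 8.09% of all genes. In Hspe1 they are 2 overlapping matches, 1 on each strand, to a heat shock element. The element searched was 3 alternately inverted GAA units with 2 free bases between them. The joined matches lie 89 to 72 bases before the RefSeq start of Hspe1 and inside an annotated exon of Hspd1. The element was found in the window of 2 of the 35 genes, Hspd1 and Hspe1, which share it, and in 0.662% of all genes. The nuclear receptor site TNAAGGTCA was in none of the 35 (1.43% of all genes), the palindrome read by NRF1 was in Opa1 (1.07%), and TGACGTCA, a cyclic AMP response element, in Trap1 (2.03%). These are matches of letters only.

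Chchd2, the paralog of Chchd10, was the most abundant of the 40 per kilobase (11270 in Steap4f/f and 7581 in Steap4AKO). It had 11739, 9419, 10300.2 and 9790 in the controls, against 6658 and 7214 in the Steap4AKO libraries, with no overlap. The mean was 1.49-fold lower, and the difference did not pass (log2 difference -0.57, SE 0.15, limma adjusted p = 0.131). The ratio of Chchd10 to Chchd2 was 0.353, 0.300, 0.306 and 0.515 in the controls, against 0.170 and 0.118 in the Steap4AKO libraries, so that both Steap4AKO libraries lay below all 4 controls.

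**Figure D3:**
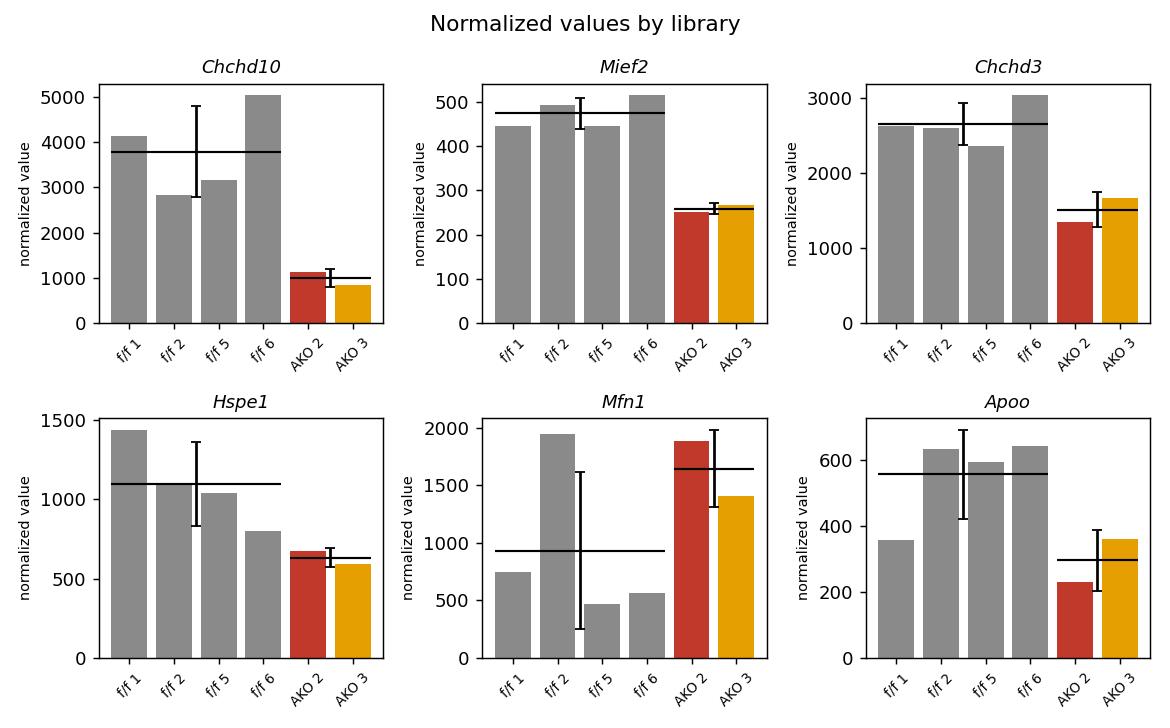
Bars are normalized values in the 4 Steap4f/f libraries (grey) and Steap4AKO replicates 2 (red) and 3 (orange); horizontal lines are group means and error bars 1 SD (n = 4 and n = 2). Chchd10, Mief2, Chchd3 and Hspe1 have both Steap4AKO bars below all 4 control bars, while Mfn1 and Apoo overlap through Steap4f/f replicates 2 and 1.

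Among fission genes the receptor Mief2 stood out. Dnm1l encodes the GTPase that constricts mitochondria, and Fis1, Mff, Mief1 and Mief2 encode its partners in the outer membrane. Mief2 (chromosome 11, 60728398 to 60732951) had 445, 492, 446 and 515.5 in the controls, against 250.4 and 267 in the Steap4AKO libraries, with little spread within either group. Its mean was 1.83-fold lower (log2 difference -0.87, SE 0.16, limma adjusted p = 0.0658), which missed the threshold. Its log2 difference was -0.82 without Steap4AKO replicate 2 and -0.92 without replicate 3, and -0.60 with the muscle index as a covariate.

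The related receptor Mief1 had 498 to 625 in the controls, against 554 and 671 in the Steap4AKO libraries (log2 difference 0.14, with a 95% confidence interval of -0.25 to 0.53). The ratio of Mief2 to Mief1 was 0.893, 0.937, 0.714 and 0.901 in the controls, against 0.452 and 0.398 in the Steap4AKO libraries, with no overlap. Fis1, a tail-anchored protein, had 1402, 1665, 1517 and 1328 in the controls, against 1265 and 1318 in the Steap4AKO libraries, no overlap by a margin smaller than the spread within Steap4f/f (log2 difference -0.19, limma adjusted p = 0.499). The values of Dnm1l and Mff overlapped, with log2 differences of -0.12 and -0.09 and 95% intervals of -0.49 to 0.26 and -0.56 to 0.38.

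The 2 genes of outer membrane fusion both overlapped between groups. Mfn1, a mitofusin, had 747, 1947, 471 and 565 in the controls, against 1884 and 1408 in the Steap4AKO libraries. Steap4f/f replicate 2 was the highest of the 6 libraries and the other 3 Steap4f/f libraries were the lowest. The mean was 1.77-fold higher in Steap4AKO (log2 difference 1.04, SE 0.51, limma adjusted p = 0.324), and the log2 difference was 1.48 without Steap4f/f replicate 2. Mfn2, the second mitofusin, which also tethers mitochondria to the endoplasmic reticulum and is abundant in muscle, had 4648, 6215, 6308 and 7784 in the controls, against 4052 and 6195 in the Steap4AKO libraries. Steap4AKO replicate 3 stood at 99.3% of the Steap4f/f mean and replicate 2 at 65.0%. Steap4f/f replicate 1, with the least muscle marker RNA of its group, was the lowest control for Mfn2. The same library was the highest control for other members, among them Parl, Clpp, Hspe1, Phb2 and Chchd2. With the muscle index as a covariate the log2 difference was 0.89 (SE 0.27) for Mfn2. For Parl, Clpp, Hspe1, Phb2 and Chchd2 it was -0.98, -0.91, -1.67, -0.73 and -0.73. Genotype and muscle content cannot be told apart well in these adjusted values, and the part of muscle RNA was not tested further.

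Of the 4 genes of inner membrane fusion and OPA1 processing, 1 was lower without overlap, Parl, beside 14.4% of all genes. The other 3 overlapped. Opa1 encodes the inner membrane GTPase and had 1400 to 1922 in the controls, against 1430 and 1710 in the Steap4AKO libraries, a log2 difference of -0.06 with a 95% interval of -0.45 to 0.32. Oma1 and Yme1l1 encode the proteases that cut OPA1. Oma1 had 201, 222, 216 and 245 in the controls, against 186 and 205 in the Steap4AKO libraries, which overlapped, and Yme1l1 had 1419 to 1764 in the controls and 1728 and 1658 in Steap4AKO, which also overlapped. Parl, a rhomboid protease of the inner membrane that cuts PINK1, had 922, 526, 495 and 657 in the controls, against 471 and 463 in the Steap4AKO libraries. Both Steap4AKO values were lower without overlap, while the Steap4f/f values spread over a wider range than the gap (log2 difference -0.43, SE 0.26, limma adjusted p = 0.408).

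All 8 cristae genes had lower means in Steap4AKO, except Mtx2 with equal column sums (log2 difference 0.023) and Apoo and Mtx1 with the muscle index as a covariate (0.46 and 0.18). Immt, Chchd3, Chchd6 and Samm50, 4 of the 8, were lower without overlap, beside 14.4% of all genes. Immt encodes mitofilin, the core of MICOS (chromosome 6, 71831331 to 71877388). It had 5563, 4882, 5025 and 6014 in the controls, against 3322 and 3803 in the Steap4AKO libraries, 1.51-fold lower (log2 difference -0.59, SE 0.14, limma adjusted p = 0.111). Both Steap4AKO libraries were well below the lowest Steap4f/f library.

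Chchd3, which binds mitofilin at the crista junction (chromosome 6, 32790976 to 33060260), had 2621, 2598, 2358 and 3040 in the controls, against 1350 and 1674 in the Steap4AKO libraries. It was 1.76-fold lower (log2 difference -0.81, SE 0.15, limma adjusted p = 0.0658). With 1 Steap4AKO library left, whose spread is then taken from the controls, the log2 difference was -0.66 without replicate 2 (adjusted p = 0.359) and -0.97 without replicate 3 (adjusted p = 0.0407), which leaves the library that stood apart. With the muscle index as a covariate its log2 difference was -0.39. Its paralog Chchd6 had 654 to 864 in the controls, against 531 and 645 in the Steap4AKO libraries, a smaller log2 difference of -0.28. The ratio of Chchd6 to Chchd3 was 0.223 to 0.366 in the controls, against 0.394 and 0.386 in the Steap4AKO libraries, higher without overlap.

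Samm50, the barrel protein that inserts others into the outer membrane and docks MICOS to it, had 1693, 1767, 2126 and 1984 in the controls, against 1278 and 1175 in the Steap4AKO libraries. It was 1.54-fold lower (log2 difference -0.62, SE 0.14, limma adjusted p = 0.0970). Its partners, the metaxins Mtx1 and Mtx2, overlapped between groups, with log2 differences of -0.23 and -0.16. Mtx1 shares 759 exonic bases with Gm43737 and 318 with Thbs3, both on the other strand.

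The MICOS apolipoproteins, both on the X chromosome, were lowest in Steap4AKO replicate 2. Apoo had 356, 632, 592 and 641 in the controls, against 229 and 361 in the Steap4AKO libraries. Steap4f/f replicate 1, the control with the least muscle marker RNA, was as low as Steap4AKO replicate 3. The part of muscle RNA in this was not tested further. The mean was 1.88-fold lower (log2 difference -0.91, SE 0.30, limma adjusted p = 0.187), and with the muscle index as a covariate the log2 difference was 0.46 (SE 0.40). Apool had 400 to 522 in the controls, against 283 and 413 in the Steap4AKO libraries, with a log2 difference of -0.48.

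Prohibitins form rings in the inner membrane that hold proteases and stabilise cristae. Phb2 had 2866, 2431, 2645 and 2228 in the controls, against 1633 and 1838 in the Steap4AKO libraries, 1.46-fold lower without overlap (log2 difference -0.55, SE 0.15, limma adjusted p = 0.133). Phb had 2843, 2852, 2773 and 3632 in the controls, against 2264 and 2546 in the Steap4AKO libraries (log2 difference -0.32, limma adjusted p = 0.314). Phb shares near-identical sequence with 3 other annotated genes, 2 of them in the table. These were the pseudogene Gm7666, with 8.11 to 25.4, and Fyb, a protein-coding gene that shares 339 bases. Fyb had 30.7 to 96.8 in the controls, 307 in Steap4AKO replicate 2 and 78.2 in replicate 3. Summed with the whole values of both, the log2 difference of Phb was -0.24.

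All 6 proteases had lower means, except Clpx with the muscle index as a covariate (log2 difference 0.53). Of the 6, 5 were lower without overlap, beside 14.4% of all genes. Clpp, the barrel of the matrix ClpXP protease, had 1162, 756, 761 and 750 in the controls, against 529 and 639 in the Steap4AKO libraries (log2 difference -0.53, SE 0.22, limma adjusted p = 0.254), with Steap4f/f replicate 1 well above the rest. Clpx, the unfoldase that feeds it, had 1449 to 1930 in the controls and 1031 and 1602 in Steap4AKO replicates 2 and 3, where Steap4AKO replicate 3 stood at 97.3% of the Steap4f/f mean. Spg7, a subunit of the AAA protease facing the matrix, had 2044, 1735, 1940 and 1802 in the controls, against 1297 and 1498 in the Steap4AKO libraries (log2 difference -0.43, SE 0.14, limma adjusted p = 0.179). Its partner Afg3l2 had a log2 difference of -0.22. Lonp1, the matrix protease of oxidised proteins, was 2806 to 3324 in the controls, against 2020 and 2736 in the Steap4AKO libraries, and Htra2, of the intermembrane space, was 661 to 801 in the controls and 549 and 586 in Steap4AKO. Htra2 shares 753 exonic bases with Aup1 on the other strand.

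The 3 chaperones were lower without overlap, beside 14.4% of all genes. With the muscle index as a covariate, Trap1 had a log2 difference of 0.11. Hspd1 and Hspe1 encode the chaperonin of the matrix and its lid, and lie head to head on chromosome 1, from 55077835 to 55088243 and from 55088132 to 55091307. Hspd1 had 7344, 7039, 6460 and 6872 in the controls, against 4692 and 4943 in the Steap4AKO libraries, 1.44-fold lower (log2 difference -0.52, SE 0.13, limma adjusted p = 0.112). The values were tight within both groups. Hspe1 had 1439, 1102, 1042 and 802 in the controls, against 676 and 590 in the Steap4AKO libraries, 1.73-fold lower (log2 difference -0.76, SE 0.23, limma adjusted p = 0.162).

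The ratio of Hspe1 to Hspd1 was 0.117 to 0.196 in the controls, against 0.144 and 0.119 in the Steap4AKO libraries, which overlapped. The starts of the 2 genes share 112 exonic bases on opposite strands, so that reads there cannot be told apart without strand. Trap1, the mitochondrial member of the HSP90 family, had 4329, 3948, 4221 and 4411 in the controls, against 2232 and 3802 in the Steap4AKO libraries. Steap4AKO replicate 2 stood at 52.8% of the Steap4f/f mean and replicate 3 at 89.9%, and the adjusted p by limma was 0.237 with both. With 1 of them left, and the spread taken from the controls, the log2 difference was -0.15 without replicate 2 (adjusted p = 0.820) and -0.92 without replicate 3 (adjusted p = 0.0247).

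Of the 8 mitophagy genes 2 were lower without overlap, Map1lc3a and Fundc1, beside 14.4% of all genes. Map1lc3a, an LC3 protein that is joined to the autophagosome membrane, had 3993, 4632, 4864 and 4155 in the controls, against 2697 and 3564 in the Steap4AKO libraries, 1.41-fold lower without overlap (log2 difference -0.50, SE 0.16, limma adjusted p = 0.182). Its paralog Map1lc3b had 2912 to 4849 in the controls and 3168 and 3669 in Steap4AKO, which overlapped. Pink1, the kinase that accumulates on damaged mitochondria, had 4494 to 6295 in the controls, against 3871 and 6054 in the Steap4AKO libraries, so that replicate 3 was within the control range.

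The mitophagy receptors sit in the outer membrane and bind LC3. Bnip3l, the receptor that clears mitochondria from maturing red cells, had 2189, 2451, 2865 and 1985 in the controls, against 2713 and 3315 in the Steap4AKO libraries. It was one of 4 genes of the 40 with a higher mean log2 value (log2 difference 0.35, SE 0.18, limma adjusted p = 0.339), beside Mfn1, Yme1l1 and Mief1, and its groups overlapped. Fundc1, a receptor of hypoxia-induced mitophagy, was 422 to 553 in the controls and 395 and 376 in Steap4AKO. Fkbp8, a receptor of the same membrane, was 3189 to 3523 in the controls and 3237 and 3207 in Steap4AKO, which overlapped. The adaptor Sqstm1 had 6566 to 8247 in the controls, against 8017 and 7188 in the Steap4AKO libraries, with a log2 difference of -0.0048 and a 95% interval of -0.35 to 0.34. Optn, another adaptor, had 2032 to 3107 in Steap4f/f and was the lowest in Steap4AKO replicate 2 (1768) and the highest in replicate 3 (3413).

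Within the 40 genes, the Steap4AKO libraries differed from each other. In Steap4AKO replicate 2 alone, 30 of the 40 lay below every Steap4f/f library and none above. Of all genes, 28.6% lay below and 31.6% above. In replicate 3 alone, 21 lay below, where 23.9% of all genes did. There 3 lay above, Mief1, Bnip3l and Optn, where 24.4% of all genes did. The median of the 40 without Steap4AKO replicate 2 was -0.16, and with the muscle index as a covariate it was -0.08.

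**Figure D4:**
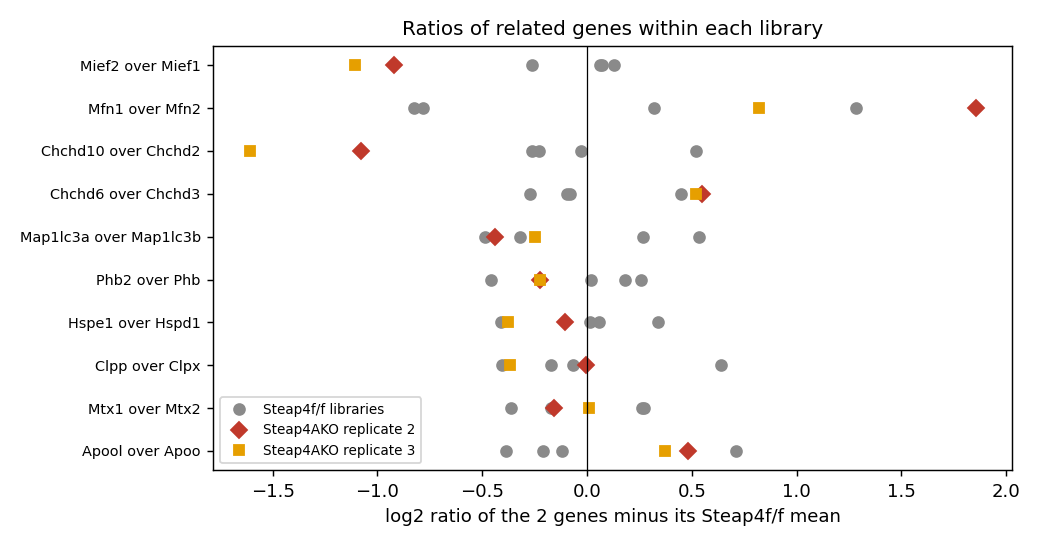
Log2 ratio of 2 related genes in each library minus its Steap4f/f mean, with symbols for libraries as in the other plots. The ratios of Mief2 to Mief1 and of Chchd10 to Chchd2 are lower, and that of Chchd6 to Chchd3 higher, in the Steap4AKO pair than in all 4 controls, and the other 7 pairs overlap.

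Another 63 genes of the same processes, listed by function, were measured in the same libraries. Of these 62 were in the table and 61 were tested, none passed the threshold, and 14 had an unadjusted p under 0.05 by limma, 12 of them lower, beside 18.1% of all genes at that level. Their median log2 difference was -0.11. Both Steap4AKO libraries lay below every Steap4f/f library in 16 and above in 5, beside 14.4% and 14.1% of all genes. By kind, the 15 proteases and chaperones had a median of -0.35 with 7 lower and 1 higher without overlap. The 23 tested mitophagy and autophagy genes had 0.04 with 2 lower and 2 higher. The 18 tested dynamics genes had -0.07 with 6 lower and 2 higher, and the 5 cristae genes had -0.25 with 1 lower and 0 higher.

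The smallest p among the lower of these genes belonged to Gdap1, an outer membrane fission factor of neurons, with 44.3, 88.1, 24.8 and 99.4 in the controls, against 4.94 and 6.86 in the Steap4AKO libraries (log2 difference -3.06, SE 0.66, limma adjusted p = 0.0868). Stoml2, a stomatin-like protein that binds prohibitins, came second, with 1131, 1005, 910 and 1093 against 654 and 700 (log2 difference -0.61, limma adjusted p = 0.106). Among the higher genes, Foxo3, a transcription factor of autophagy genes, had 591, 585, 586 and 599 in the controls, against 998 and 835 in the Steap4AKO libraries (log2 difference 0.63, limma adjusted p = 0.0943). Nln, a mitochondrial and cytosolic oligopeptidase, had 1009 to 1274 in the controls, against 1441 and 1525 in the Steap4AKO libraries (log2 difference 0.39, limma adjusted p = 0.214). The values of Foxo3 in Steap4f/f were within a narrow range, and both Steap4AKO values were above it.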

How the data were processed

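RNA from iWAT of high-fat-fed mice was sequenced in 6 libraries. Per the submitters' processing notes, DESeq2 1.12.4, R 4.2.0, RSEM 1.3.3 and STAR 2.7.0e were used, with GRCm38 (mm10), in roles that the notes do not state. The strand setting and annotation are not given in the sources used here. What the authors deposited is a normalized signal per gene, which the table's name calls DESeq2-normalized counts. Its low values did not fall on multiples of 1 read (51.7 to 59.2% of values under 15 were within 0.1 of a multiple), so count models were not applied. Depth is estimated from the step with the best fit.

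Identifiers were matched to GENCODE M21 (15125 of 15176). Differences were tested two-sided with limma 3.58.1 in R 4.3.3 on log2(value + 1) with a variance trend, for 15006 genes with a mean of at least 10. The 40 genes, the other lists and the motifs were chosen with earlier results of these data known. Values in every library are given for members past the threshold, members without overlap and an absolute log2 difference of at least 0.5, and the 2 members with the largest difference in each role; of the other genes, the 2 with the smallest p in each direction are named. Ratios of gene pairs were chosen after the values were seen. Copies were sought with BLAST+ 2.17.0 at 95% identity over 200 bases. On simulated data for this comparison (14559 to 14583 genes, 200 of them changed), the fit recovered 33.4% of 2-fold and 74% of 4-fold changes, with 6.4 false calls per run. The noise was drawn independently for each gene, with the largest spreads capped, and changed genes had a mean of at least 50. Shifts shared by a whole library were not simulated, so that these rates may not hold for the real libraries. Alternatives were other pseudocounts, filters, scalings, variance priors, array weights, a muscle covariate (the mean log2 value of 16 markers), a threshold of 0.1 and each library left out.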

Additional observations from a re-analysis of the deposited data

Results flagged for a closer look

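In 4 of the 40 genes, 1 of the 4 Steap4f/f libraries lay far from the other 3, where chance gives about 1 in 20. Clpp was high in Steap4f/f replicate 1 (1162), Chchd6 in replicate 5 (864) and Phb in replicate 6 (3632). Fkbp8 was low in Steap4f/f replicate 6 (3189).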

How the results depend on the processing

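The number of genes past the threshold, 71 with 1 among the 40, became 1 (0 of the 40) with a pseudocount of 0.5, a mean of at least 50, a robust prior or the muscle covariate, 13 (0) without the variance trend, 123 (1) with a pseudocount of 5, 119 (1) with array weights and 410 (4) at a threshold of 0.1. Leaving out 1 library gave 1 to 821 genes and 0 to 2 of the 40: 1 gene without Steap4AKO replicate 2 or Steap4f/f replicate 2, 5 or 6, 238 when Steap4f/f replicate 1 was left out and 821 when Steap4AKO replicate 3 was. The adjusted p of Chchd10 was 0.0503 with a pseudocount of 0.5, 0.0512 with a mean of at least 50, 0.0665 with a robust prior and 0.166 without the variance trend. The median of the 40 was -0.47 to -0.16 with 1 library left out and -0.081 with the muscle covariate. With equal column sums it was -0.12, where the median of all genes moved from 0.02 to 0.21, and 13 genes were lower and 3 higher without overlap, beside 7.67 and 25.6% of all genes. The count of genes lower without overlap was 21 to 30 with 1 library left out, where the share of all genes was 16.7 to 28.6%.

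Of 680 member values under 17 settings, 631 kept their direction and side of the threshold and 37, in 16 genes, changed sign. None of these 16 had passed the threshold. The settings for filters and variance priors cannot change a log2 difference, and only 1 of the 40 passed in the main fit. The count of 631 is therefore no measure of robustness. With the muscle covariate 12 genes changed sign, and their log2 differences were 0.89 for Mfn2, 0.54 for Opa1, 0.19 for Oma1, 0.017 for Dnm1l, 0.63 for Mff, 0.46 for Apoo, 0.18 for Mtx1, 0.10 for Phb, 0.53 for Clpx, 0.11 for Trap1, 0.79 for Pink1 and 1.29 for Optn. Some genes that kept their sign became more negative, such as Hspe1 (-0.76 to -1.67), Parl (-0.43 to -0.98), Clpp (-0.53 to -0.91) and Fundc1 (-0.26 to -0.63). Others moved towards 0, such as Mief2 (-0.87 to -0.60), Chchd3 (-0.81 to -0.39) and Map1lc3a (-0.50 to -0.079). With equal column sums they were 0.12 for Opa1, 0.0078 for Oma1, 0.066 for Dnm1l, 0.090 for Mff, 0.023 for Mtx2, 0.10 for Fkbp8, 0.022 for Map1lc3b, 0.18 for Sqstm1 and 0.14 for Optn. Under quantile normalization they were 0.00023 for Fkbp8, 0.14 for Sqstm1 and 0.027 for Optn, and with array weights 0.026 for Sqstm1. With 1 library left out they ranged from -0.60 to 0.014 for Mfn2, -0.19 to 0.065 for Opa1, -0.34 to 0.16 for Mff, -0.54 to 0.11 for Pink1, -0.084 to 0.074 for Sqstm1 and -0.52 to 0.43 for Optn. Count models on whole reads were not run because these were not recovered. The causes were not tested. No paired analysis was possible because the groups share only replicate number 2.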
